A study of Drosophila melanogaster with 3 samples.

Results

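Aminoacyl-tRNA synthetase genes of Drosophila melanogaster were examined for binding of the CG3919 protein, as mapped by chromatin immunoprecipitation and sequencing (ChIP-seq). Members were the protein-coding genes whose symbol is the code of an amino acid, or GluPro, followed by RS or by RS-m, where -m marks the mitochondrial enzyme. The annotation held 33 such genes among 13945 protein-coding genes on arms 2L, 2R, 3L, 3R, 4 and X, and 18 of the 33 lack the -m suffix while 15 carry it. The 18 are AlaRS, ArgRS, AsnRS, AspRS, CysRS, GlnRS, GluProRS, GlyRS, HisRS, IleRS, LeuRS, LysRS, MetRS, SerRS, ThrRS, TrpRS, TyrRS and ValRS. The 15 are AlaRS-m, ArgRS-m, AsnRS-m, AspRS-m, CysRS-m, GluRS-m, IleRS-m, LeuRS-m, MetRS-m, PheRS-m, ProRS-m, SerRS-m, TrpRS-m, TyrRS-m and ValRS-m. The subunits of the cytosolic phenylalanine enzyme are spelled alpha-PheRS and beta-PheRS in the annotation, with the Greek letter in front, and therefore fall outside the naming rule. They are described separately below.

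Chromatin came from whole prepupae, males and females pooled, of a stably transformed line whose CG3919 protein carries GFP at its C terminus, and an antibody against GFP recovered the tagged protein. The prepupa is the stage at which ecdysone pulses start to replace larval with adult tissues. There was 1 group of 3 biological replicates with 1 control file and no second genotype or condition, so every comparison is between genes within the same map. Because whole animals were used, binding in a few cells and weaker binding in many cannot be told apart. Which promoter drives the transgene, and in which tissues, is not stated in the labels.

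Aminoacyl-tRNA synthetases join each amino acid to its own tRNA, the step at which the genetic code is read in chemical terms. Animal cells keep a cytosolic and a mitochondrial set, and all of these enzymes are encoded in the nucleus. Most amino acids have a separate gene for each compartment, while in animals the glycine, histidine and lysine enzymes commonly serve both compartments from a shared gene. The enzymes fall into class I and class II, which have unrelated catalytic folds, and several of the cytosolic ones sit together in the multisynthetase complex on the AIMP scaffold proteins. Uncharged tRNA is sensed by the kinase GCN2, which raises translation of the transcription factor ATF4, encoded in the fly by crc.

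Each replicate was deposited as 30000 candidate regions, as were the pooled replicates, and the authors kept 9569 reproducible peaks, which are the same regions as the top 9569 pooled candidates. A candidate region is not a call, since these lists hold peaks together with background. The authors' deposited signal is used below only to rank regions within a list, with rank 1 the strongest. A gene is called bound where the summit of a reproducible peak lies within 500 bp of any of its transcription start sites (TSSs). For replicate shares the strongest 9569 candidates of each replicate were used in the same way. The number of reads behind a peak is unknown, and Wilson 95% intervals cover counting error only, for genes that can share a promoter and so are not independent.

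Of the 33 synthetase genes 11 were bound, against a background of 23.1% of all protein-coding genes. The 11 are SerRS, IleRS, GluProRS, ThrRS, AspRS, AlaRS, ValRS and GlyRS from the cytosolic set and ArgRS-m, CysRS-m and LeuRS-m from the mitochondrial set. Their strongest peaks spread from rank 573 to rank 8846. Of the 11, 10 had the summit of their strongest peak within 500 bp of the start of another protein-coding gene as well, always one transcribed from the opposite strand. None of the other 22 synthetase genes had so much as a pooled candidate in the window.

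The sequences under 7 of these peaks show what lies at the bound sites. They are the summit regions of bound members on arms 2L, 3L and 3R, reaching up to 100 bp to either side of the summit and limited to the stretch that holds no annotated exon. SerRS is left out because its summit lies in its own 5′ UTR. Coordinates are on dm6, letters are from the RefSeq genome of that assembly, and each run reads 5′ to 3′ on the strand of the synthetase gene. Capitals mark every match, on either strand, to 1 of 8 motifs: TATCGATA (DRE, bound by DREF), CGATA (the BEAF-32 core, also held in DRE), GGTCACAC (the M1BP core), CAGCTG (an E-box), CACGTG (the E-box of Myc), GAGAG (the GAGA element), TATAAA (the TATA box) and TTGCATCA (an ATF4 element).
IleRS, chr3L:22288403-22288603, plus strand: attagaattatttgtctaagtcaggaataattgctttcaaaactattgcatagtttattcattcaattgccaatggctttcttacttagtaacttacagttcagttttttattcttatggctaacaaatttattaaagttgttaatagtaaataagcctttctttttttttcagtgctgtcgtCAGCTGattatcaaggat
GluProRS, chr3R:23958406-23958606, minus strand: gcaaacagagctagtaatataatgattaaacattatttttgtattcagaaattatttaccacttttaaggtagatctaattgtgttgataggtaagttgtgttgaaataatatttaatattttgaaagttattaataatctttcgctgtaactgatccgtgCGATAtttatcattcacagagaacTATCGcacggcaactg
ThrRS, chr2L:12103472-12103672, plus strand: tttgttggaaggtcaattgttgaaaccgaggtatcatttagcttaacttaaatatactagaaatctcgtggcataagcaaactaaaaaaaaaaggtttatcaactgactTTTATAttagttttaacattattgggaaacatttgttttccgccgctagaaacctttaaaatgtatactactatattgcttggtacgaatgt
ArgRS-m, chr3R:7886838-7887038, plus strand: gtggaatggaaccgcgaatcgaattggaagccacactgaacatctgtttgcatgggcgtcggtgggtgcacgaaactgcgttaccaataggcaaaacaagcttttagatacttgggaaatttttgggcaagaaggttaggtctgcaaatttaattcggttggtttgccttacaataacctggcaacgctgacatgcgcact
AlaRS, chr2L:8381765-8381820, minus strand: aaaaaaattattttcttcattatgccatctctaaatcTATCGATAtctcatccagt
GlyRS, chr3L:15094725-15094883, plus strand: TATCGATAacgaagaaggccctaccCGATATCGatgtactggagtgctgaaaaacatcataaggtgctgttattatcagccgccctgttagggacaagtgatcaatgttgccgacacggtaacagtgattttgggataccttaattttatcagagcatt
LeuRS-m, chr3L:4825695-4825852, plus strand: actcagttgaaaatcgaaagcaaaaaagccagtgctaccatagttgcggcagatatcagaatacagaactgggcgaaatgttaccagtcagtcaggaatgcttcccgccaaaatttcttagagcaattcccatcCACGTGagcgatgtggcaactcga

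The summit regions of IleRS, GluProRS and ThrRS, 3 of the strongest peaks, are rich in A and T, with 27.9%, 28.9% and 30.3% G and C. That of ArgRS-m has 46.3% G and C and no match to any of the 8 motifs. The DRE in the AlaRS region starts 15 bp before the summit, and that in the GlyRS region starts 58 bp before. The GlyRS summit lies 359 bp before GlyRS and 59 bp from the start of Plp, and this DRE lies on the Plp side. GluProRS has the CGATA core on both strands, starting 61 and 85 bp after its summit. In LeuRS-m the Myc E-box starts 34 bp after the summit, and in IleRS the other E-box starts 83 bp after it. These are matches of letters and do not show that a factor binds there.

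SerRS, which charges serine tRNA, had the strongest peak of the family, on arm 2L at chr2L:3037187-3037576. It ranked 573 in the pooled list and 450, 799 and 602 in replicates 1, 2 and 3, a mean of 617 ± 175 (SD, n = 3). The summit lies 22 bp into the gene, in the 5′ UTR of SerRS. On the other strand a start of CG17260 lies 8 bp from that of SerRS, and the summit is 30 bp before it. The summit also falls in an intron of CG17260, which belongs to a transcript with a different start. SerRS is the single member whose strongest summit lies downstream of its start.

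IleRS, the isoleucine enzyme, was bound on arm 3L at chr3L:22288343-22288645. Its peak ranked 944 in the pooled list and 947, 1043 and 935 in the replicates, a mean of 975 ± 59.2 (SD, n = 3), which is the tightest set of ranks in relation to its mean among the 9 members with a candidate in every replicate. The summit is intergenic, 162 bp before IleRS and 308 bp before Hem, which encodes a subunit of the WAVE actin regulatory complex.

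GluProRS encodes a fused enzyme for glutamic acid and proline and had 2 peaks. The stronger, at chr3R:23958329-23958698, ranked 1196 in the pooled list and 859, 1574 and 1447 in the replicates, a mean of 1293 ± 381 (SD, n = 3). Its summit is intergenic, 115 bp before GluProRS and 145 bp before AP-1sigma, a subunit of a clathrin adaptor. The weaker, at chr3R:23955307-23955742, lies in an intron of GluProRS 26 bp before an internal TSS. It ranked 5624 in the pooled list and 7009, 4450 and 7272 in the replicates. The start shared with AP-1sigma was the higher ranked in all 3 replicates.

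ThrRS, the threonine enzyme, was bound at chr2L:12103462-12103715 on arm 2L with rank 1529 in the pooled list. Replicates 2 and 3 ranked the peak 1335 and 1873, while replicate 1 had no candidate there and its nearest lay 11756 bp away. Such gaps were more frequent in replicate 1 at large: 290 of the 9569 reproducible peaks had no candidate in replicate 1, 117 had none in replicate 2 and 39 had none in replicate 3. Among the strongest 1600 peaks the numbers were 18, 6 and 2. The summit is intergenic, 179 bp before ThrRS and 287 bp before Patsas.

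AspRS, the aspartic acid enzyme on arm 2R, had 2 neighbouring peaks in an intron near an internal start. The stronger ranked 1939 in the pooled list and 1894, 2745 and 1514 in the replicates, and its summit lies 345 bp before the internal TSS. The other ranked 2282 in the pooled list and 2984, 3700 and 1791 in the replicates, with its summit 128 bp before that TSS. Each replicate kept this order. Nmda1, on the opposite strand, has more than 1 start here. One of its starts lies 141 bp from the stronger summit, and a different one lies 74 bp from the other summit. Nmda1 is thus the nearer gene to both. The stronger summit lies in an intron of Nmda1 and the other in its 5′ UTR. AspRS was not bound when only the most upstream TSS of each gene was counted.

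The other 3 cytosolic members had weaker peaks. AlaRS, the alanine enzyme, was bound at chr2L:8381550-8381985, 4 bp before its start, with rank 5014 in the pooled list and 6583, 5165 and 5279 in the replicates. It is the single bound member with no other protein-coding start in reach of the summit. ValRS, the valine enzyme on arm 2R, ranked 5295 in the pooled list and 5086, 5777 and 6056 in the replicates. Its summit lies 492 bp before its nearest TSS, just inside the 500 bp limit, and 21 bp from the start of Kdm4B, a histone demethylase. With a limit of 250 bp ValRS was not bound.

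GlyRS, the glycine enzyme on arm 3L, had 2 peaks at its promoter, at chr3L:15094565-15095000 and chr3L:15094909-15095344. The one at rank 7820 in the pooled list has its summit 359 bp before GlyRS, 59 bp from Plp, a centrosomal protein, and 64 bp from sstn. The one at rank 7977 has its summit 15 bp before GlyRS. Their ranks were 6191, 15760 and 7105, and 8614, 11779 and 6878, in replicates 1, 2 and 3, so replicate 2 placed both outside its strongest 9569. A stronger replicate 2 candidate, at rank 9061, also overlaps the region of the first, with its summit further from GlyRS. The SD of the first, 5281 around a mean of 9685 (n = 3), was the widest among the strongest peaks of the members. The order of the peaks was not the same in every replicate.

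The 3 bound mitochondrial members ranked below most of the cytosolic ones. ArgRS-m, the mitochondrial arginine enzyme, was bound at chr3R:7886859-7887050 with rank 3785 in the pooled list and 3832, 4373 and 4106 in the replicates, a mean of 4104 ± 271 (SD, n = 3). Its summit is intergenic, 107 bp before ArgRS-m and 205 bp before CG17816. CysRS-m, the mitochondrial cysteine enzyme on arm 2R, ranked 5632 in the pooled list and 5476 and 5012 in replicates 2 and 3, while the nearest candidate of replicate 1 lay 3680 bp away. O-fut1, an O-fucosyltransferase that acts on Notch, starts 27 bp from this summit, and CysRS-m starts 141 bp from it. LeuRS-m, the mitochondrial leucine enzyme, was bound at chr3L:4825577-4826012 with rank 8846 in the pooled list and 7192, 9548 and 10055 in the replicates. Its summit is 58 bp before LeuRS-m and 108 bp before Dhc64C, the cytoplasmic dynein heavy chain, and it is the single member peak below the highest −log10 q-value of the list, at 3.55 against 4.23.

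**Figure D1:**
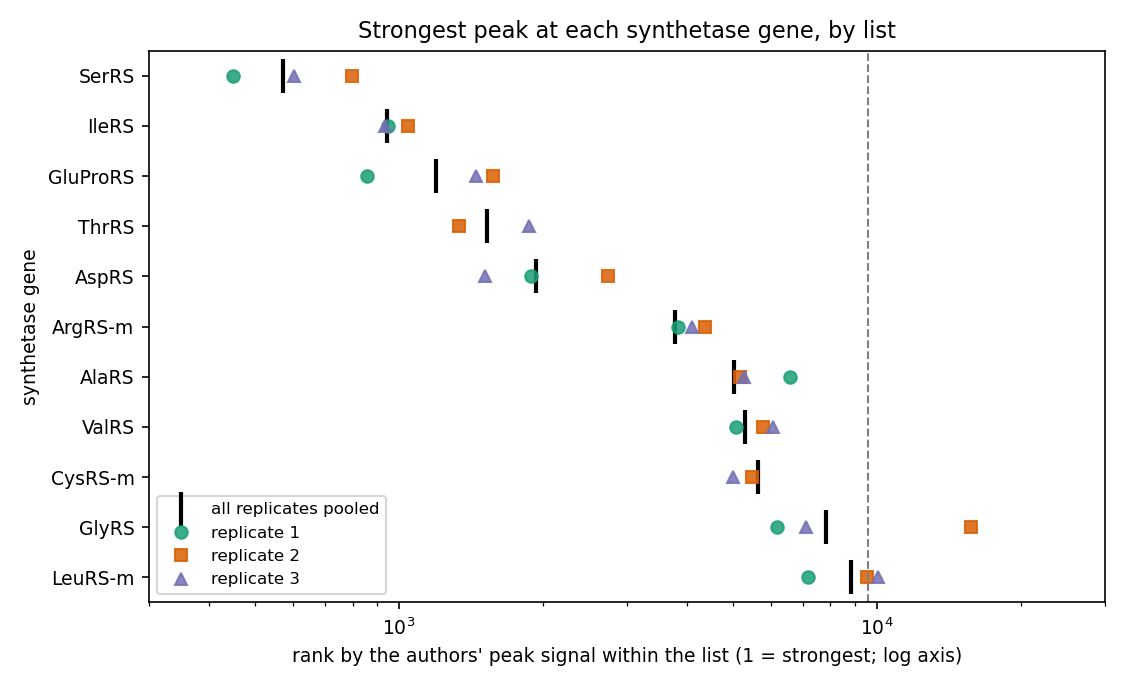
Rank of the strongest peak at each bound synthetase gene (log axis, 1 = strongest) in the pooled list (black ticks) and in each replicate (coloured points), with a dashed line at rank 9569. SerRS lies furthest to the strong end at rank 573 and LeuRS-m to the weak end at rank 8846, and ThrRS and CysRS-m have no point for replicate 1.

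The members' ranks were not unusual among bound genes. The median of the 11 strongest peaks was 3785, against 3705 for all bound protein-coding genes, with medians of 1734 for the 8 cytosolic and 5632 for the 3 mitochondrial members. Among the strongest 4784 peaks lay 6 of the 11, of which 5 are cytosolic, against 62.4% of all bound protein-coding genes. A reproducible peak at a second summit position in the window was found for 3 of the 11 members and for 18.9% of bound protein-coding genes. Matched replicate summits of member peaks had a median shift of 11 bp from the pooled ones, and none was above 65 bp. The match took the overlapping candidate with the nearest summit, and the pooled list comes from the same replicates. Small shifts are therefore partly built in.

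By compartment, 8 of the 18 cytosolic genes were bound, 44.4% (Wilson 24.6% to 66.3%), and 3 of the 15 mitochondrial ones, 20% (7.05% to 45.2%). The cytosolic share was the higher, but the intervals overlap and the difference amounts to a few genes. Among the strongest candidates of the replicates, 38.9%, 44.4% and 50% of cytosolic genes had a summit in the window, a mean of 44.4% ± 5.56 (SD, n = 3). For mitochondrial genes the shares were 20%, 20% and 13.3%, a mean of 17.8% ± 3.85 (SD, n = 3). The genes were not the same in each replicate. ProRS-m in replicate 1 and AsnRS in replicates 2 and 3 are counted here, though neither had a reproducible peak. The cytosolic share exceeded the mitochondrial share in each replicate. For the family as a whole the replicates gave 30.3%, 33.3% and 33.3%, against 21.8%, 25.3% and 24.6% of all protein-coding genes. The pooled family share of 33.3% has a Wilson interval of 19.8% to 50.4%, which holds the background share.

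**Figure D2:**
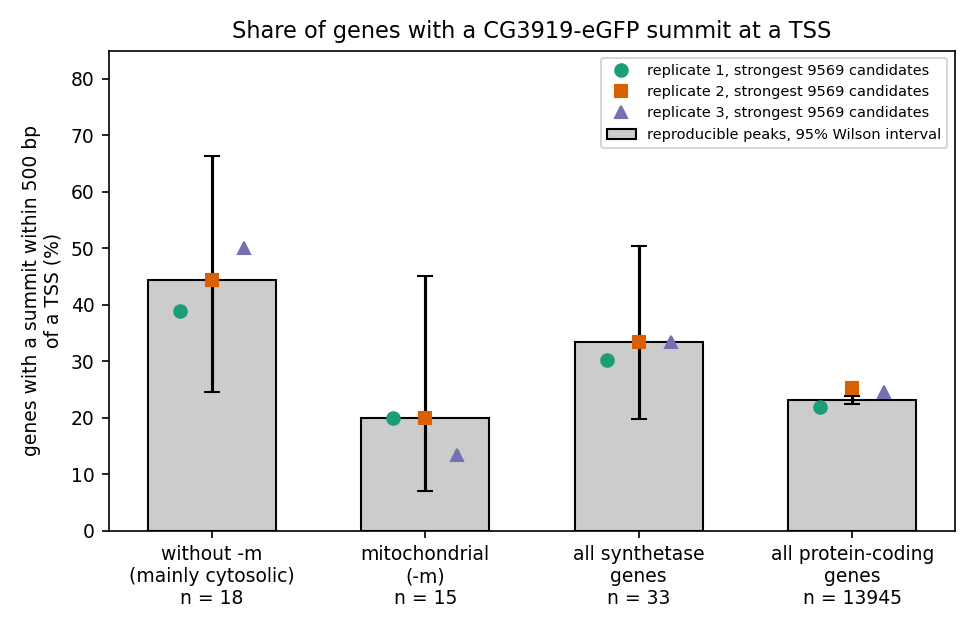
Percent of genes with a summit within 500 bp of a TSS for synthetase sets and all protein-coding genes, as bars with Wilson 95% intervals for reproducible peaks and points for the strongest 9569 candidates of each replicate. The cytosolic bar stands at 44.4%, the mitochondrial bar at 20% and all protein-coding genes at 23.1%, with wide overlapping intervals for the synthetase sets.

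The mitochondrial count was lower when support in single replicates was required. When a peak had to overlap 1 of the strongest 9569 candidates in each remaining replicate, 2 mitochondrial genes stayed bound without replicate 1, 1 without replicate 2 and 2 without replicate 3. Without replicate 2 the lost genes were CysRS-m and LeuRS-m. Replicate 1 had no candidate at CysRS-m, and LeuRS-m ranked 10055 in replicate 3. The dual use of GlyRS, HisRS and LysRS moved the cytosolic share little, since 7 of the other 15 were bound, or 46.7%. GlnRS and ThrRS, which also have no -m gene in the set, were kept among these 15. Neither alpha-PheRS nor beta-PheRS was bound, with nearest reproducible summits 1868 and 7311 bp away, and counting both gave 8 of 20 cytosolic genes, or 40%, and 11 of 35 in all, or 31.4%.

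Genes with more annotated starts have more windows in which a summit can fall, and the number of starts differed between the sets. Among cytosolic genes 7 have more than 1 TSS and 6 of these were bound, while 2 of the 11 with a single TSS were bound. Among mitochondrial genes 2 have more than 1 TSS, AspRS-m and ValRS-m, and neither was bound, while 3 of the 13 with a single TSS were. For all protein-coding genes the shares were 41.2% with more than 1 TSS and 16.5% with a single TSS. The part of the number of starts in the difference between compartments was not tested.

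For 12 amino acids each compartment has its own gene in the set. The cytosolic gene alone was bound for alanine, aspartic acid, isoleucine, serine and valine, the mitochondrial gene alone for arginine, cysteine and leucine, and neither for asparagine, methionine, tryptophan and tyrosine. With 5 cytosolic and 3 mitochondrial genes bound among the 12 pairs, few amino acids could have had both bound, and nothing is read from the 0 found. Of the 8 members that sit in the multisynthetase complex, AspRS, GluProRS and IleRS were bound, and the same share of 37.5% was found in each replicate. Its Wilson interval of 13.7% to 69.4% holds the 23.1% of all protein-coding genes.

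Structural class was looked at after the values had been seen. In the cytosolic set 2 of 9 class I enzymes and 5 of 8 class II enzymes were bound, with GluProRS, which joins both classes, left out. The Wilson intervals were 6.32% to 54.7% for class I and 30.6% to 86.3% for class II, beside a background of 23.1%. In the mitochondrial set 3 of 9 class I enzymes and 0 of 6 class II enzymes were bound. Among the strongest candidates of replicate 1 there was a summit at 1 of the 6, ProRS-m. That background share lies inside the Wilson intervals of both mitochondrial classes, 12.1% to 64.6% for class I and 0% to 39.0% for class II. It lies inside the cytosolic class I interval but below the cytosolic class II interval. The class I and class II intervals overlap in each set, and the split was made after the values were seen. So no order of the classes is read from these counts.

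Most bound members share their promoter region with a gene on the other strand. For 10 of the 11, or all but AlaRS, the strongest summit also lay within 500 bp of another protein-coding start, against 43.5% of bound protein-coding genes. The synthetase start was the nearest to the strongest summit for 7 of the 11. The nearer start was that of the neighbour for AspRS, ValRS, CysRS-m and GlyRS. Upstream of its own start lay the strongest summit of 10 of the 11 members, at a median of −141 bp, against 80.2% and −110 bp for all bound protein-coding genes. A summit in such a region cannot be assigned to either gene from position alone.

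**Figure D3:**
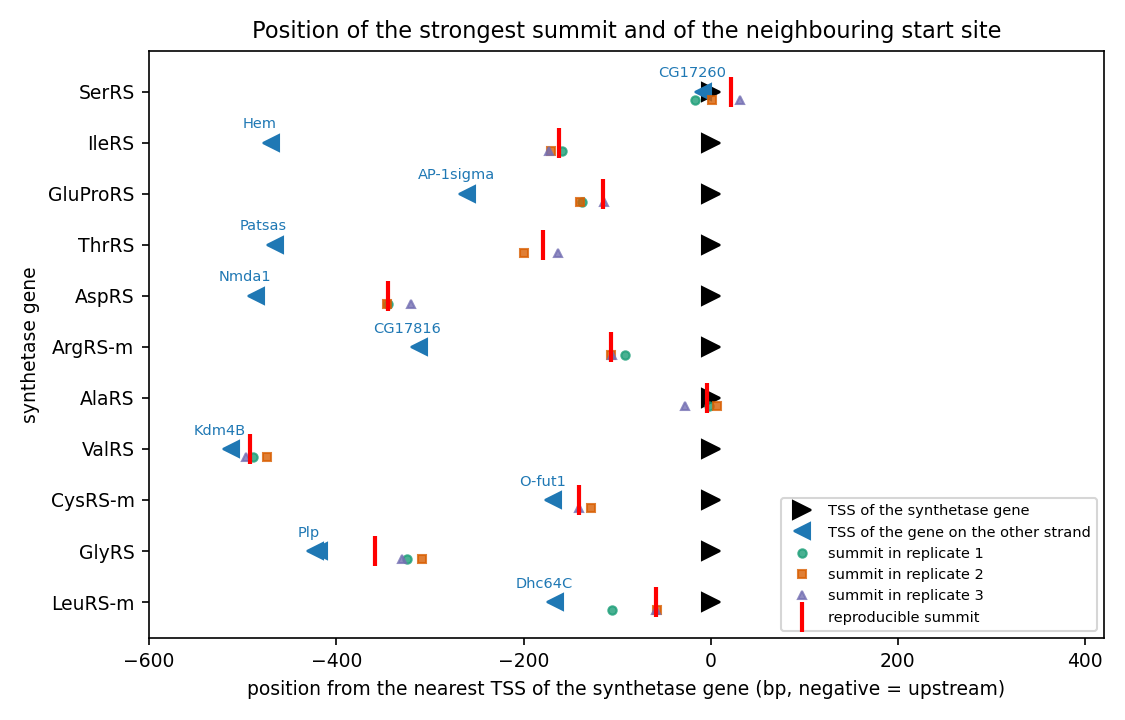
Position in bp from the nearest TSS of each bound synthetase gene (black arrowhead at 0, negative = upstream) of the strongest reproducible summit (red), of replicate summits (points) and of the neighbour's TSS on the other strand (blue). The reproducible summits lie upstream of the start except for SerRS at 22 bp downstream, replicate summits of SerRS and AlaRS fall on either side of the start, and AlaRS alone has no neighbouring start.

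Synthetase genes at large have close neighbours. A protein-coding start on the other strand lay within 500 bp of a start of 21 of the 33 members, against 27.8% of all protein-coding genes. Of those 21 members 9 were bound, or 42.9%, and of the other 12 members 2 were bound, or 16.7%. The same split of all protein-coding genes gave 35.4% with such a neighbour and 18.3% without. All 3 bound mitochondrial genes belong to the 7 with a neighbour, and 0 of the 8 without one were bound. In the cytosolic set 6 of 14 with a neighbour and 2 of 4 without were bound. What the shared starts contribute to binding at the synthetases was not tested.

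The unbound members had their nearest peaks well outside the window. For the 22 unbound genes the nearest reproducible summit was 1698 to 24896 bp from a TSS, with a median of 8366 bp, and 19 of them had none within 5000 bp. The exceptions are AsnRS at 1698 bp, SerRS-m at 2819 bp and MetRS at 4632 bp. AsnRS-m, the mitochondrial asparagine enzyme, was the furthest at 24896 bp. No unbound member had a reproducible summit anywhere inside the gene. These values were not computed for unbound protein-coding genes at large, so they are not read as a trait of the family. Around the 500 bp limit ValRS at 492 bp is just inside and AsnRS at 1698 bp is the next member outside, so no member falls close beyond the limit.

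**Figure D4:**
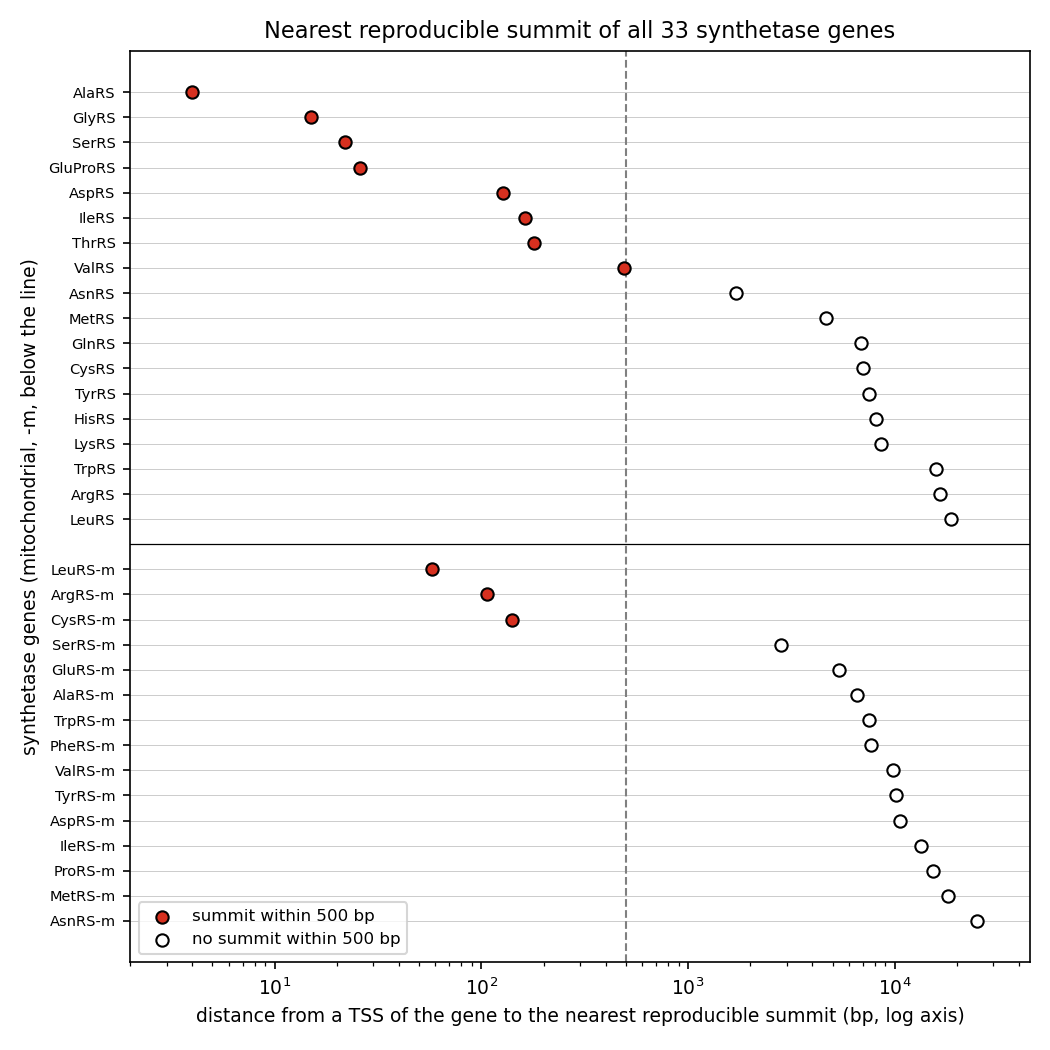
Distance in bp (log axis) from a TSS to the nearest reproducible summit for all 33 synthetase genes, cytosolic above and mitochondrial below the line. The 11 bound genes lie at up to 492 bp and the 22 others start at 1698 bp, with an empty stretch between.

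Weaker candidates hardly filled these gaps. Among all protein-coding genes without a reproducible peak 16.1% had a pooled candidate in the window, while 0 of the 22 unbound members had one. Replicate lists held a candidate for 3 of them. AsnRS, the asparagine enzyme, had a candidate at rank 8101 in replicate 2 and at rank 6573 in replicate 3, both within the strongest 9569, and none in replicate 1. ProRS-m, the mitochondrial proline enzyme, had a candidate at rank 5350 in replicate 1 alone. MetRS, the methionine enzyme, had a candidate at rank 16449 in replicate 2 alone. HisRS came nearest to the limit in the pooled list, with a candidate of rank 18364 at 527 bp. The other 19 had no candidate in the window in any list: AlaRS-m, ArgRS, AsnRS-m, AspRS-m, CysRS, GlnRS, GluRS-m, HisRS, IleRS-m, LeuRS, LysRS, MetRS-m, PheRS-m, SerRS-m, TrpRS, TrpRS-m, TyrRS, TyrRS-m and ValRS-m.

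By arm, 3 of 6 members were bound on 2L, 3 of 8 on 2R, 3 of 10 on 3L, 2 of 6 on 3R and 0 of 3 on X. The members on X are ArgRS, HisRS and LysRS. The background there was 24.1% of protein-coding genes, close to that of the other large arms, so with 3 genes a count of 0 says little.

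The motifs marked in the printed sequences were counted within 100 bp of the strongest summit of each of the 11 bound members and around all 3106 summits at protein-coding starts. DRE was present in 2 of the 11 windows, those of AlaRS and GlyRS, against 4.93% of all summits. The CGATA core was present in 6 of the 11, against 32.9%, and TATAAA in 6 of the 11, against 30.1%. Of the E-boxes, CAGCTG was present in 2 of the 11, IleRS and LeuRS-m, against 13.1% of all summits, and CACGTG in 1 of the 11, LeuRS-m, against 2.67%. The M1BP core was present in the ValRS window alone, against 4.22%. That summit lies 21 bp from the start of Kdm4B and 492 bp from ValRS. GAGAG was in none of the 11, against 32.6%, and the ATF4 element was in none, against 0.258%, which says only that these letters are not in these windows. None of the 8 motifs was present in all 11.

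Most of the member summits were rich in A and T. The 11 summit windows had a median of 30.3% G and C, from 27.9% to 46.3%, against 39.3% for all summits at protein-coding starts, whose quartiles are 33.3% and 46.8%. Below the lower quartile lay 7 of the 11, while ArgRS-m, LeuRS-m and GlyRS were above the median of all. A motif made of A and T, such as TATAAA, is found more often in windows of this composition, and this part of its count was not tested.

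Promoters of all 33 members were compared with those of the 13945 protein-coding genes, from 250 bp before to 50 bp after the most upstream TSS. The E-box CAGCTG was found in 16 of the 33, or 48.5%, against 17.7% of all promoters. It was no more frequent at bound members, being in 5 of the 11 bound and 11 of the 22 unbound. CGATA was in 63.6% against 47.5%, and DRE in 15.2% against 9.37%, at AlaRS, ArgRS, IleRS, PheRS-m and TrpRS. TATAAA was in 54.5% against 45.9%, the M1BP core in 12.1% against 7.71% and CACGTG in 6.06% against 4.24%. GAGAG was in 18.2% against 29.8%. The ATF4 element was in none of the 33, against 0.817% of all promoters.

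**Figure D5:**
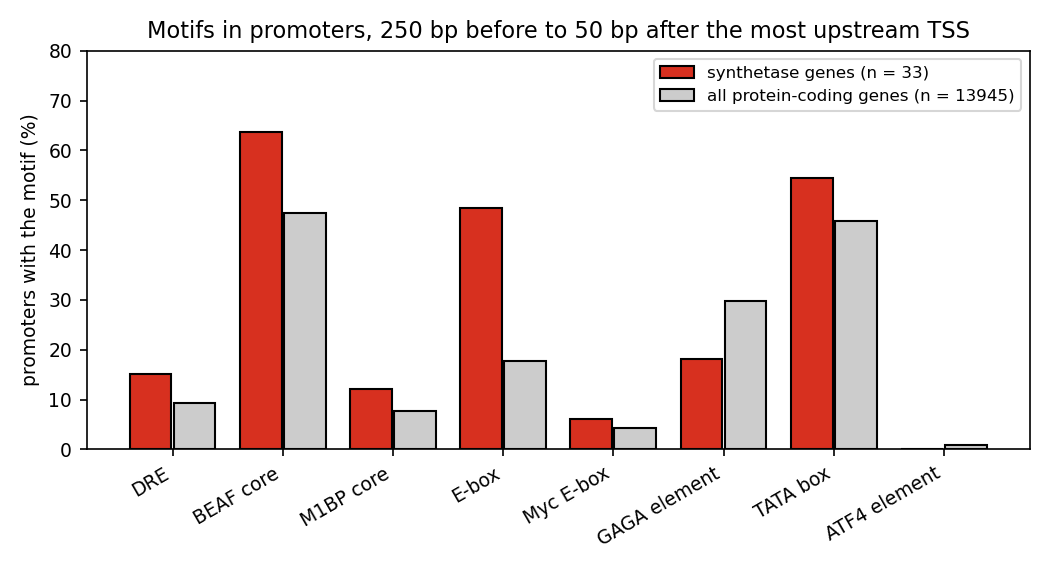
Percent of promoters that hold each of 8 motifs, for the 33 synthetase genes and all 13945 protein-coding genes. CAGCTG (E-box) is at 48.5% against 17.7%, while GAGAG is lower at 18.2% against 29.8%.

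Other genes linked to tRNA charging and translation were scored by the same rule. Among 8 partners of the charging step 1 was bound, or 12.5%, against 23.1% of all protein-coding genes. It is GatA, a subunit of the amidotransferase that completes glutamine tRNA in mitochondria. GatA ranked 1045 in the pooled list and 723, 1297 and 1327 in the replicates, a mean of 1116 ± 340 (SD, n = 3). Its summit lies 89 bp upstream of GatA but only 15 bp from the start of P5cr, an enzyme of proline synthesis, which is the nearer gene. The scaffold genes AIMP1, AIMP2 and AIMP3 were not bound, nor were GatB, GatC, Slimp and Dtd.

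Of the 10 annotated genes for elongation factors and their subunits 4 were bound, or 40%, against the same 23.1% of all protein-coding genes. They are eEF1gamma at rank 415, eEF1alpha1 at rank 1533, eEF2 at rank 2444 and the mitochondrial mEFTu1 at rank 8346. In the replicates eEF1alpha1 ranked 1390, 2899 and 1106, and its weaker peak, at rank 5959 in the pooled list, lies nearer to ERp60. The ranks of mEFTu1 were 6659, 7411 and 12942, so replicate 3 placed it outside its strongest 9569. Replicate 1 had no candidate at eEF1gamma, as at ThrRS and CysRS-m, while replicates 2 and 3 ranked it 743 and 252. Not bound were eEF1alpha2, eEF1beta, eEF1delta, mEFTu2, mEFTs and mEFG1.

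In a list of 7 genes of the response to amino acid shortage and related stress 2 were bound, or 28.6%. This share is near the 23.1% of all protein-coding genes. Thor, the 4E-BP repressor of translation, ranked 4896 in the pooled list with a mean of 5086 ± 774 over the replicates (SD, n = 3). Its summit lies 31 bp downstream of the start. The gene crc, the fly ATF4, ranked 9184 in the pooled list and 8113, 17467 and 8496 in the replicates, where the replicate 2 list also holds a stronger candidate that overlaps the region, at rank 10854. Gcn2, PEK, PPP1R15, eIF2alpha and eIF2Bepsilon were not bound.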

How the data were processed

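Per the deposited provenance texts, the authors derived candidate regions from the alignments of each of 3 replicates, and of the pooled replicates, with 1 control file, and kept reproducible peaks by the irreproducible discovery rate. For the aligner, the peak caller and the threshold, names and versions were not given in the sources used here. Regions carry the authors' deposited signal, on a scale that is not given, a deposited −log10 q-value and the summit of each region. Ranks are by deposited signal. 88.1% of reproducible peaks share the highest −log10 q-value of 4.23, so it was not used to rank. Read depth is unknown. The dm3 lists were not used here.

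Gene starts were taken from Ensembl release 115 (dm6 coordinates) and bases from the RefSeq genome of that assembly. Replicate candidates were matched to a reproducible peak by an overlap of at least 1 bp, taking the one with the nearest summit. The members, the gene lists, the motifs and the window were chosen with earlier results of these data known. Every bound member was named, with every member of the charging, elongation and shortage lists. The name mEFG2 found no annotated gene. Classes and the counts with both PheRS subunits were added after values were seen. No p-value was computed, since there is 1 group. Shares have Wilson 95% intervals. The counting of summits near starts and the sign of their offsets were checked on planted summits. Ranking and the choice of the nearest replicate candidate were not checked in this way. Python 3.11.15 was used with numpy 2.4.6, pandas 2.3.3, scipy 1.17.1 and matplotlib 3.10.9.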

Additional observations from a re-analysis of the deposited data

How the results depend on the processing

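No paired analysis was possible because there is 1 group of samples. With the strongest 4784 peaks alone, 6 members, 5 cytosolic and 1 mitochondrial, were bound, against 14.4% of all protein-coding genes. With all pooled candidates, which include background, the same 11 members had a summit in the window, as did 35.4% of all protein-coding genes. To leave out a replicate, the same reproducible peaks were kept. Each had to overlap 1 of the strongest candidates, as used for replicate shares, in each remaining replicate. Leaving out each replicate in turn in this way left 8 to 10 members bound, with 7 to 8 cytosolic and 1 to 2 mitochondrial. The shares of all protein-coding genes were 17.8% to 19.6%. The losses were LeuRS-m without replicate 1, CysRS-m, LeuRS-m and ThrRS without replicate 2, and CysRS-m and ThrRS without replicate 3. These losses came from the replicates that were kept, not from the one left out. Replicate 1 had no candidate at CysRS-m or ThrRS, and replicate 3 ranked LeuRS-m 10055, outside its strongest candidates.

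Across the other windows, start sites and summit definitions tried, 8 to 11 members were bound, against 18.5% of all protein-coding genes within 250 bp, 26.9% within 1000 bp, 18.6% by nearest TSS, 20.5% by most upstream TSS and 23.1% by the middle of the region. The lowest count came from giving each summit to its nearest TSS alone, which dropped AspRS, CysRS-m and ValRS. ArgRS-m, GluProRS, IleRS and SerRS met the rule in all 11 settings, and the 22 unbound members in none. Only the 1000 bp window, the pooled candidates and the middle of the region could have added a member. The remaining settings can only take members away, so they do not test the unbound ones. Matching replicates by 50% overlap left ArgRS-m with no replicate candidate. A ranking by the deposited score column was not run, since that column holds the same value in every row. Without read counts, weak binding at the unbound members cannot be bounded.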
